A study of Mus musculus with 6 samples.

Results

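Complement is a cascade of plasma proteins and cell surface receptors that tags microbes and dying cells and draws in leukocytes. Probe sets for its components and receptors were taken wherever the platform annotation names exactly 1 gene symbol from a list of 9 genes: C1qa, C1qb, C1qc, C3, C4b, Hc, Cfb, C3ar1 and C5ar1. This gave 11 probe sets for 8 genes, out of 45037 probe sets on the arrays besides the control probe sets. No probe set was assigned to C3, which was not analysed here.

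The lungs came from 6 BALB/c mice, males that entered the study at 10 weeks of age, in 2 groups of 3. The hydrogen group was kept for 3 weeks in 98% air with 2% hydrogen, and the control group in normal air for the same time. RNA of each whole lung was hybridised to its own array, and each value is a log2 value of 1 probe set on 1 array. The question of the design is which transcripts differ in the lung after hydrogen exposure.

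In the classical pathway, C1q binds antibody complexes or dying cells and starts cleavage of C4, C2 and C3. In the lectin pathway the mannose-binding lectins and ficolins do this with the MASP proteases, and in the alternative pathway factor B forms the protease that cleaves C3. The fragments C3a and C5a act on the receptors encoded by C3ar1 and C5ar1 on myeloid cells. Many circulating components are made in the liver, whereas C1q is made mainly by macrophages and dendritic cells, and Hc, the gene for C5, is transcribed in lung epithelium as well.

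The 3 C1q chain genes were lower in the lungs of hydrogen mice, by 1.57- to 1.68-fold between group means. For each chain, every hydrogen lung lay below every control lung. The downstream components C4b and Hc and the alternative pathway gene Cfb did not pass the threshold. The anaphylatoxin receptor genes had small changes, and their probe sets went different ways. Calls were made at 0.05 on limma's p after Benjamini-Hochberg adjustment over all 45037 probe sets. By this threshold hydrogen lungs had 2 of the 11 member probe sets higher and 4 lower, and 5 did not pass. Over all probe sets 47.1% passed, 24.3% upward and 22.8% downward, against 54.5% of the member probe sets. The share of members called was thus near that of the whole array. The median log2 difference was 0.01 over the 11 and 0.02 over all probe sets. The groups did not overlap for 6 of the 11, or 54.5%, against 57.3% of all probe sets.

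**Figure D1:**
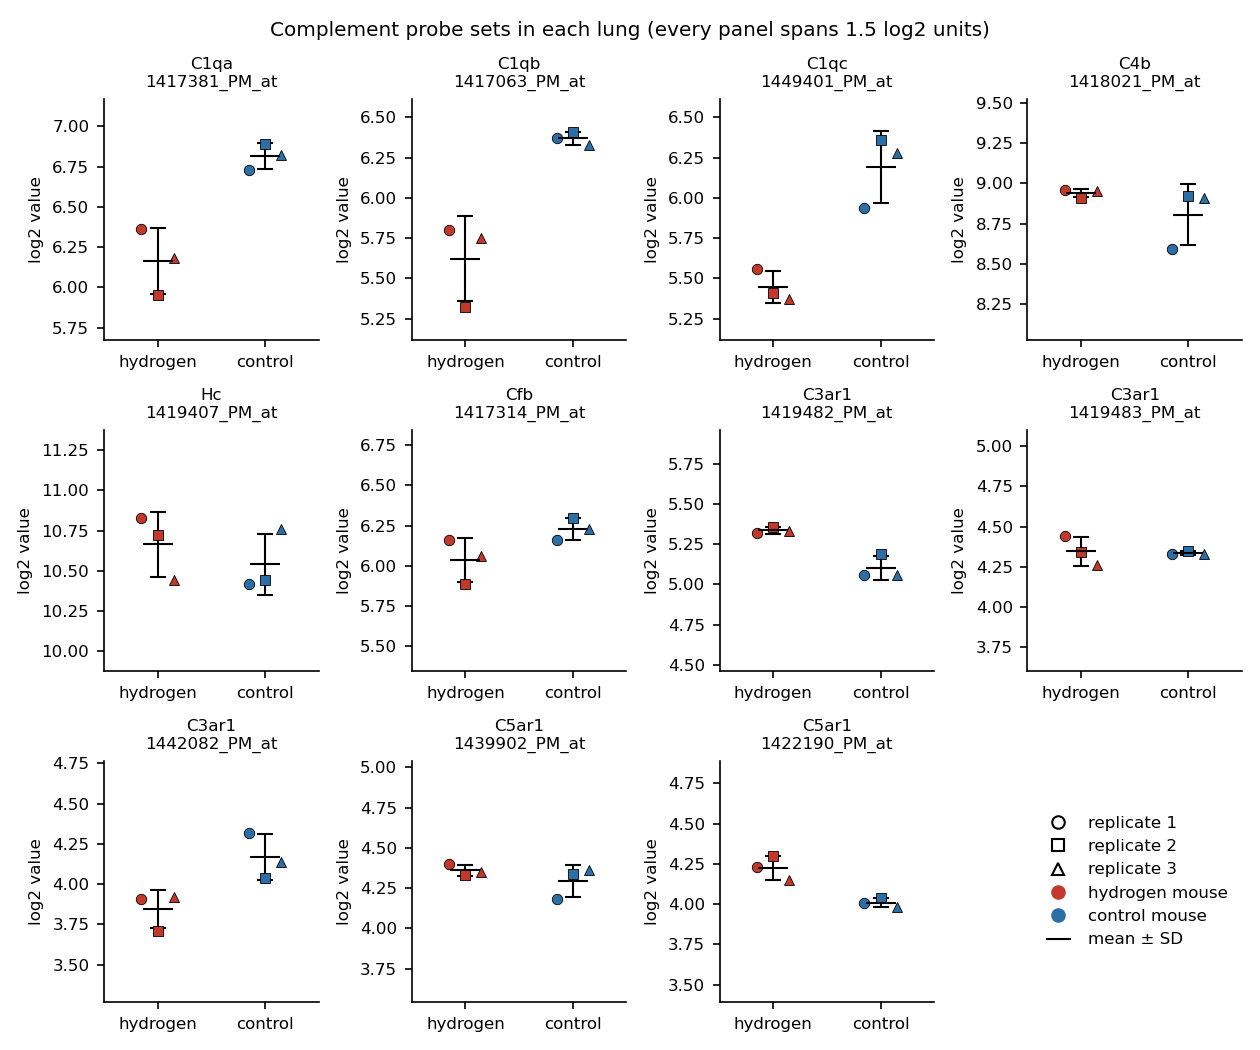
Log2 values of the 11 member probe sets, 1 panel each, with hydrogen mice on the left and control mice on the right of a panel. Points are mice and bars are mean ± SD (n = 3); every panel spans 1.5 log2 units. The groups do not overlap in 6 of the 11 panels: C1qa, C1qb, C1qc, the brightest and the dimmest C3ar1 probe set, and the dimmer C5ar1 probe set. In the C1qa, C1qb and C1qc panels the hydrogen means are 6.16, 5.62 and 5.45 and the control means 6.81, 6.37 and 6.19.

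The arrays as a whole differed between the groups, which bears on every small difference given here. The labels give no batch. Medians over probe sets were 4.84 to 4.85 on hydrogen arrays and 4.75 to 4.76 on control arrays, and the SD over probe sets was 1.80 to 1.81 on hydrogen arrays and 1.90 to 1.92 on control arrays. Of 104 control probe sets, 20 were higher and 34 lower, with differences from -0.97 to 1.07. Differences followed brightness: the median log2 difference was 0.15 in decile 4 of mean log2 values and -0.23 in decile 9. The lung markers Sftpc, Scgb1a1, Ager, Cldn18 and Hopx were bright in both groups. Their summed levels were 59.84 to 60.01 in hydrogen lungs and 60.27 to 60.45 in control lungs. By the threshold Ager (-0.15) and Hopx (-0.22) were lower (limma adjusted p = 0.0437 and 0.0137), and the other 3 did not pass. The median log2 difference in decile 10, where they lie, was -0.13. Of cardiac muscle markers 6 of 6 fell (median log2 difference -2.04), with summed levels of 33.00 to 45.76 in hydrogen lungs and 53.07 to 55.48 in control lungs. Of 5 club cell markers 3 fell (Bpifa1 -4.44, Scgb3a1 -2.55 and Scgb3a2 -0.26), with sums of 47.74 to 58.82 in hydrogen lungs and 61.14 to 61.67 in control lungs. Of 7 fibroblast markers 3 fell, among them Dcn (-0.76) and Tcf21 (-0.74), with sums of 53.47 to 54.51 in hydrogen lungs and 55.59 to 56.20 in control lungs. Of 3 adipocyte markers, Adipoq fell (-2.43), Lep rose (0.17) and Retn did not pass (-0.27). The adipocyte sums overlapped, at 14.02 to 18.46 in hydrogen lungs and 18.01 to 18.67 in control lungs. Hydrogen replicate 2 had the lowest mean of all 6 lungs for the cardiac (5.50), club cell (9.55), adipocyte (4.67) and fibroblast (7.64) markers and for the C1q chains (5.56). This lung was also the lowest for the shared macrophage (7.28) and alveolar macrophage (6.43) markers, but not for the interstitial macrophage or monocyte markers. Without it the falls of C1qa, C1qb and C1qc were -0.54, -0.60 and -0.73 (limma adjusted p = 0.00399, 0.00176 and 0.00625). The part of these markers in the complement results was not tested. Whether the groups were processed apart is not given in these sources, and exposure and batch cannot be told apart.

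C1q is a hexamer of units that each hold 1 chain from C1qa, C1qb and C1qc. The 3 genes lie next to each other on mouse chromosome 4, with 0 protein-coding genes between C1qa and C1qc and 0 between C1qc and C1qb in RefSeq GRCm38.p6. RefSeq promoter windows were held for C1qb and C1qc. They are shown because these neighbours fell together, as the 250 bases before each start, 5′ to 3′ on the gene's strand. Capitals mark matches on either strand to GAGGAA, the core bound by the myeloid factor PU.1, to its longer form GAGGAAGT, which contains that core, and to TGCTGA, a short site of the MAF factors of macrophages. The C1qb window is chr4:136886201-136886450 and the C1qc window chr4:136892915-136893164, both on the minus strand.
C1qb: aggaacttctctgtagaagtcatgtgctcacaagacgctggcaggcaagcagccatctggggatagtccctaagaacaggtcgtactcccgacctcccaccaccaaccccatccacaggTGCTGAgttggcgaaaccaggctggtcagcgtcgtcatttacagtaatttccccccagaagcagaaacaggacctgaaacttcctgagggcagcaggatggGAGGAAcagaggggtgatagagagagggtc
C1qc: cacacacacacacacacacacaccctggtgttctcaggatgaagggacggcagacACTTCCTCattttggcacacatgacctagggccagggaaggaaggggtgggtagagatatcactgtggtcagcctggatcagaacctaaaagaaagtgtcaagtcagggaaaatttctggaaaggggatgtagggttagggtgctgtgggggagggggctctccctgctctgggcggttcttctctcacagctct
GAGGAA was matched 30 to 25 bases before the start of C1qb on the forward strand, and 193 to 188 bases before the start of C1qc on the reverse strand. Only the C1qc match extended to GAGGAAGT, at 195 to 188 bases. TGCTGA was matched 131 to 126 bases before the start of C1qb and not in the C1qc window. Of 32851 promoter windows of this length, 23.3% hold GAGGAA, 2.4% GAGGAAGT and 16.1% TGCTGA, so GAGGAA and TGCTGA are common letters. The matches describe the sequence and were not tested as sites.

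C1qa, which encodes the A chain, had log2 values of 6.36, 5.95 and 6.18 in hydrogen lungs, against 6.73, 6.89 and 6.82 in control lungs. All 3 hydrogen lungs lay below all 3 control lungs. The difference was -0.65 (SE 0.10, 95% interval -0.88 to -0.42, limma adjusted p = 0.00158), with means of 6.16 ± 0.21 in hydrogen and 6.81 ± 0.08 in control lungs (SD, n = 3).

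C1qb, the B chain gene, had 5.80, 5.32 and 5.75 in hydrogen lungs, against 6.37, 6.41 and 6.33 in control lungs. Replicate 2 of the hydrogen group was the lowest, and the control lungs were close together, with an SD of 0.04. The difference was -0.75 (SE 0.12, 95% interval -1.01 to -0.48, limma adjusted p = 0.00165).

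C1qc, the C chain gene, had 5.56, 5.41 and 5.37 in hydrogen lungs, against 5.94, 6.36 and 6.28 in control lungs. Here the hydrogen lungs lay close together and control replicate 1 was the lowest of its group, still above every hydrogen lung. The difference was -0.75 (SE 0.11, 95% interval -0.995 to -0.498, limma adjusted p = 0.00125).

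Set against the control mean, hydrogen replicates 1, 2 and 3 were at -0.45, -0.86 and -0.63 for C1qa. For C1qb they were at -0.57, -1.05 and -0.62, and for C1qc at -0.63, -0.78 and -0.82. Replicate 1 was thus the least changed hydrogen lung for each chain, and the lung with the lowest value was replicate 2 for C1qa and C1qb and replicate 3 for C1qc. The fall of C1qa was smaller than that of C1qb or C1qc by 0.10 each (exact permutation p = 0.3 each, two-sided, adjusted over 3 pairs p = 0.45). C1qb and C1qc differed in their fall by 0.00 (exact permutation p = 1). The exact permutation test of 3 against 3 arrays cannot go below p = 0.1.

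A fall of at least 0.5 past the threshold was found for 6.47% of all probe sets and for 27.3% of the member probe sets, the 3 C1q chains. In size of difference the chains ranked at percentiles 95.9, 97.7 and 97.7 of all probe sets for C1qa, C1qb and C1qc. The medians of probe sets of like brightness were -0.18 for C1qa and -0.05 for C1qb and C1qc. After cyclic loess, which takes out a trend with brightness, the differences were -0.50, -0.66 and -0.69 for C1qa, C1qb and C1qc (limma adjusted p = 0.00694, 0.00377 and 0.00266).

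**Figure D2:**
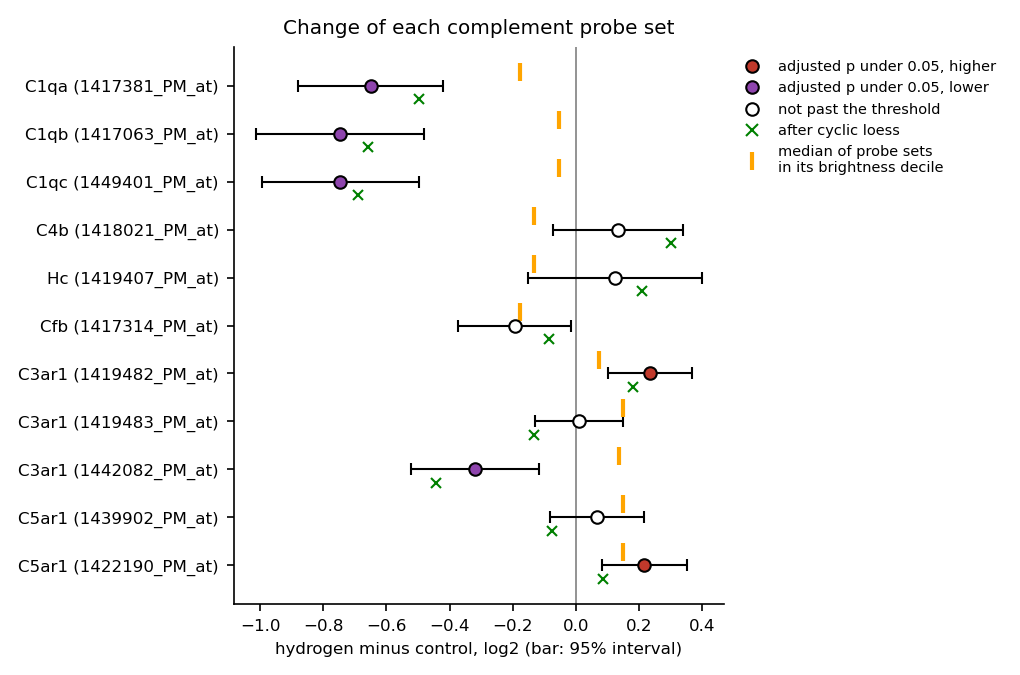
Log2 difference, hydrogen minus control, of each member probe set (points) with its 95% interval (bars). Crosses give the value after cyclic loess and orange ticks the median of all probe sets in the same brightness decile. The C1q chains lie between -0.75 and -0.65 and stay between -0.69 and -0.50 after cyclic loess.

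Macrophage markers went both ways. Of 8 markers shared by macrophages, 3 fell, 1 rose and 4 did not pass, with a median log2 difference of -0.11 and summed levels of 58.23 to 59.23 in hydrogen lungs and 59.47 to 60.20 in control lungs. The efferocytosis receptor gene Mertk (-0.71), the mannose receptor gene Mrc1 (-0.50) and the lipopolysaccharide co-receptor gene Cd14 (-0.44) fell. Fcgr1, the high-affinity IgG receptor gene, rose (0.98). Csf1r, the receptor gene for the macrophage growth factor, had 0.05 (limma adjusted p = 0.528), Adgre1, which encodes F4/80, had 0.01 (limma adjusted p = 0.928), and the lysozyme gene Lyz2 had -0.05 (limma adjusted p = 0.529). Cd68 had -0.17, with every hydrogen lung below every control lung (limma adjusted p = 0.0806, unadjusted p = 0.0431).

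Of 7 interstitial macrophage markers measured, 2 fell, 2 rose and 3 did not pass. Lyve1 (-0.86), a hyaluronan receptor gene also used by lymphatic vessels, and the scavenger receptor gene Stab1 (-0.39) fell, while the fractalkine receptor gene Cx3cr1 (0.52) and Tmem119 (0.31) rose. Apoe (-0.05), Ms4a7 (-0.01) and Folr2 (0.04) did not pass (limma adjusted p = 0.613, 0.919 and 0.611). The summed levels of the 7 markers were 49.28 to 49.87 in hydrogen lungs and 49.91 to 50.04 in control lungs. Of 7 alveolar macrophage markers, 2 fell, Car4 (-0.57), which capillary endothelium also uses, and Pparg (-0.21), and none rose (1 rose at an unadjusted p under 0.05 in limma). Their summed levels overlapped, at 44.98 to 45.96 in hydrogen lungs and 45.12 to 47.22 in control lungs. Of 6 monocyte markers, 2 rose and 1 fell, with sums of 42.60 to 43.09 in hydrogen lungs and 42.36 to 43.49 in control lungs.

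The mean of the 3 C1q chains minus the mean of the 8 shared markers was -1.50, -1.72 and -1.63 in hydrogen lungs and -1.09, -0.88 and -1.05 in control lungs. The C1q chains were thus lower in hydrogen lungs relative to the mean of these 8 markers. That mean joins markers that went both ways, from Mertk (-0.71), which fell about as far as the chains, to Fcgr1 (0.98). In whole lung, fewer cells of a type and less RNA per cell cannot be told apart.

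**Figure D3:**
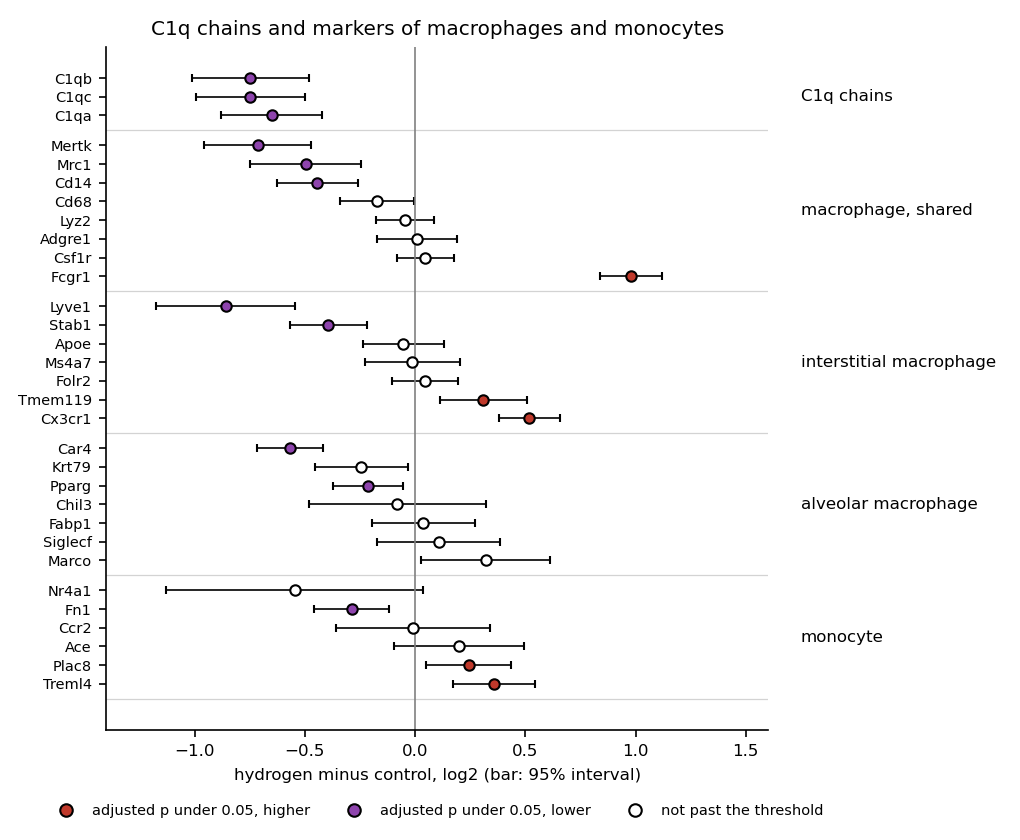
Log2 difference, hydrogen minus control, with 95% interval for the 3 C1q chains and for macrophage and monocyte markers (brightest probe set of each gene). The C1q chains lie at -0.75 to -0.65, whereas the shared macrophage markers run from -0.71 (Mertk) to 0.98 (Fcgr1), with Csf1r, Adgre1 and Lyz2 near 0.

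C4b encodes C4, which C1s and MASP2 cleave to form the classical and lectin convertase. Its values were 8.96, 8.91 and 8.95 in hydrogen lungs, against 8.59, 8.92 and 8.91 in control lungs. The groups overlapped, and control replicate 1 stood below the other 5 lungs. The difference was 0.13 (95% interval -0.07 to 0.34, limma adjusted p = 0.251). It passed the threshold with arrays quantile normalised again (0.31) and after cyclic loess (0.30; limma adjusted p = 0.0353 each), and without control replicate 1 it was 0.03 (adjusted p = 0.757).

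Hc, the gene of C5, the source of C5a and the start of the membrane attack complex, was measured by 1 bright probe set. It had 10.83, 10.72 and 10.44 in hydrogen lungs, against 10.42, 10.44 and 10.76 in control lungs. The groups overlapped across nearly the whole range. The difference was 0.12 (95% interval -0.15 to 0.40, limma adjusted p = 0.426). It lay between 0.03 and 0.24 under 16 other settings, and none passed the threshold.

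Cfb, which encodes factor B of the alternative pathway, had 6.16, 5.89 and 6.06 in hydrogen lungs, against 6.16, 6.30 and 6.23 in control lungs. Hydrogen replicate 1 matched the lowest control. The difference was -0.19 (95% interval -0.37 to -0.01, limma adjusted p = 0.0718, unadjusted p = 0.0373), close to the median of -0.18 for probe sets of like brightness. It was -0.09 after cyclic loess, -0.06 with arrays quantile normalised again and -0.12 without hydrogen replicate 2. It passed the threshold with arrays centred on their medians (-0.28, adjusted p = 0.0186) and without hydrogen replicate 1 (-0.26, adjusted p = 0.0386).

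C3ar1, the receptor gene for C3a, was measured by 3 probe sets that disagreed. The brightest had 5.32, 5.36 and 5.33 in hydrogen lungs and 5.06, 5.19 and 5.06 in control lungs. Hydrogen lungs were all above control lungs, with a difference of 0.23 (SE 0.06, 95% interval 0.10 to 0.37, limma adjusted p = 0.0119).

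The next C3ar1 probe set had 4.44, 4.34 and 4.26 in hydrogen lungs and 4.33, 4.35 and 4.33 in control lungs, a difference of 0.01 (95% interval -0.13 to 0.15, limma adjusted p = 0.905). The dimmest, whose annotation record is not a curated RefSeq transcript, had 3.91, 3.71 and 3.92 in hydrogen lungs and 4.32, 4.04 and 4.14 in control lungs. It was lower in hydrogen lungs by the threshold (-0.32, SE 0.09, limma adjusted p = 0.0181), a call that ended without hydrogen replicate 2 (-0.25, adjusted p = 0.0642) or control replicate 1 (-0.24, adjusted p = 0.0544). The call of the brightest ended with arrays centred on their medians (0.14, adjusted p = 0.0782), and the mean of the 3 probe sets was -0.026 (adjusted p = 0.67). The direction of C3ar1 thus depended on the probe set.

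C5ar1, the receptor gene for C5a, was measured by 2 dim probe sets. The brighter, whose annotation record is not a curated RefSeq transcript, had 4.40, 4.33 and 4.35 in hydrogen lungs and 4.18, 4.34 and 4.36 in control lungs, and the groups overlapped (0.07, 95% interval -0.08 to 0.21, limma adjusted p = 0.421). Its sign turned after cyclic loess (-0.08), with arrays quantile normalised again (-0.06) and with centred arrays (-0.02), where it did not pass either. The dimmer had 4.23, 4.30 and 4.15 in hydrogen lungs and 4.01, 4.04 and 3.98 in control lungs, without overlap. It was higher in hydrogen lungs by the threshold (0.22, SE 0.06, limma adjusted p = 0.0168), beside a median of 0.15 for probe sets of like brightness. That call ended after cyclic loess (0.09, adjusted p = 0.277), with arrays quantile normalised again (0.09, adjusted p = 0.256), with centred arrays (0.13, adjusted p = 0.107) and without hydrogen replicate 2 (0.18, adjusted p = 0.066). With the mean of both probe sets as 1 value per gene, C5ar1 was higher by the threshold (0.14, limma adjusted p = 0.0406). Both C5ar1 probe sets and the dimmer pair of C3ar1 had means under 4.80, the median over all probe sets. Markers of neutrophils, which carry both receptors, did not pass the threshold in 7 of 7 cases, with a median of 0.24 (2 rose at an unadjusted p under 0.05 in limma) and sums of 41.96 to 44.63 in hydrogen and 40.39 to 42.46 in control lungs; their part in the receptor values was not tested.

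**Figure D4:**
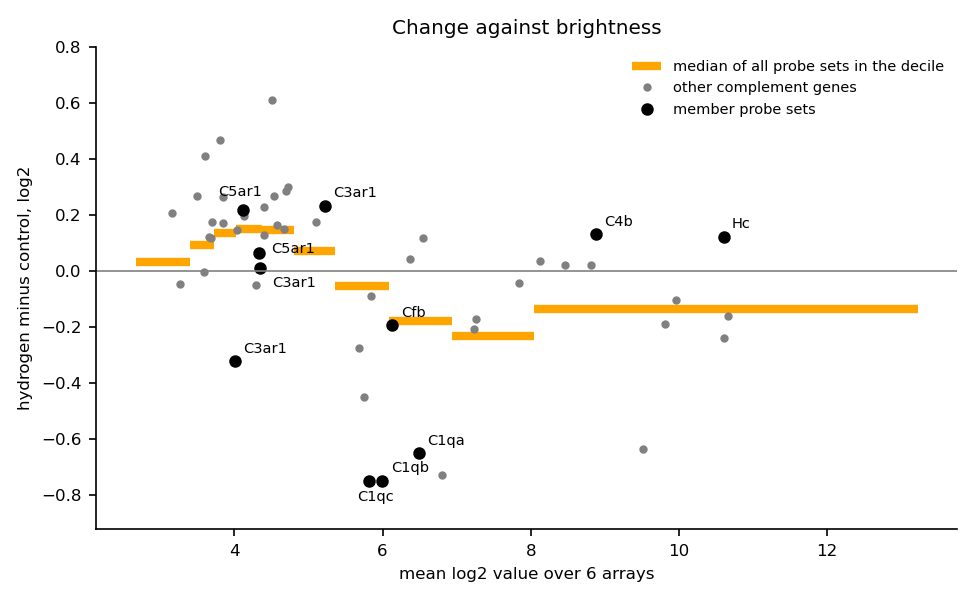
Log2 difference, hydrogen minus control, against the mean log2 value over 6 arrays, for the member probe sets (black, named) and the other complement genes (grey). Orange bars are the median of all probe sets in each brightness decile, with 0.15 in decile 4 and -0.23 in decile 9; the C1q chains lie well below the bars at their brightness, and Cfb lies on its bar.

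Of 49 further complement genes listed, 40 had a probe set of their own. By the brightest probe set of each gene, 13 were higher, 7 lower and 20 did not pass. That is 32.5% higher and 17.5% lower in the list, against 25.5% higher and 25.9% lower, or 51.4% called, among all genes, and its median log2 difference was 0.12, against 0.01 over all genes. Of the 18 list genes brighter than the median probe set, 7 were lower and none higher (1 at an unadjusted p under 0.05 in limma). The 13 higher genes were thus all among the 22 dim ones. The 7 lower genes are 38.9% of the 18. In brightness deciles 6 to 10, 21.0% to 53.5% of all probe sets were lower and 5.28% to 35.4% higher.

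None of the partner protease genes of C1q (C1ra, C1rb and C1s1) passed the threshold (0 at an unadjusted p under 0.05 in limma as well). C1s1, which encodes the C1s protease and is the brightest of the classical and lectin activators, had 8.57, 8.41 and 8.45 in hydrogen lungs and 8.46, 8.47 and 8.43 in control lungs (0.02, 95% interval -0.11 to 0.16, limma adjusted p = 0.772). It was 0.21 after cyclic loess and 0.22 with arrays quantile normalised again, both past the threshold (adjusted p = 0.0273 and 0.0183). C1ra, the C1r protease gene, had -0.04 (limma adjusted p = 0.619), and C2, cleaved by C1s, had 0.12 (limma adjusted p = 0.591); both were named after their values were seen. Of the 12 activators, 6 were higher and none lower (none at an unadjusted p under 0.05 in limma either). The 6 were Masp1, Masp2, Mbl1, Mbl2, Colec10 and Colec11, of which all but Masp1 were named after their values were seen. All 6 were dim, in brightness deciles 1 to 5, where 9.75% to 42.1% of all probe sets were higher and 2.93% to 13.4% lower. Masp1, which encodes a lectin pathway protease, had 4.73, 4.86 and 4.83 in hydrogen lungs and 4.10, 4.22 and 4.27 in control lungs. Its difference was 0.61 (SE 0.07, limma adjusted p = 0.000439), and 0.47 after cyclic loess. Of its 4 dimmer probe sets, 3 were higher (0.22 to 0.36) and 1 had -0.16 (adjusted p = 0.152).

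Several of these 6 genes have products made mostly in the liver, and hepatocyte markers were higher as well. Of 6 hepatocyte markers measured, 5 were higher and none lower (none at an unadjusted p under 0.05 in limma), with sums of 27.36 to 28.46 in hydrogen lungs and 24.62 to 25.13 in control lungs. The albumin gene Alb had 5.51 in hydrogen and 4.37 in control lungs on average, and 4 of the 6 markers lay at or below the median probe set. Those 4 were in brightness deciles 2 to 5, where 27.2% to 42.1% of all probe sets were higher and 4.46% to 13.4% lower. The part of the hepatocyte markers in the values of the 6 activator genes was not tested. Of the 5 terminal components, which form the membrane pore, 3 were higher and none lower (none at an unadjusted p under 0.05 in limma), with differences from 0.04 to 0.26. The 3 (C8a, C8b and C9, named after their values were seen) were in brightness deciles 2 to 4. There 27.2% to 41.9% of all probe sets were higher and 4.46% to 9.70% lower. The brightest terminal component gene, C6, had 6.34, 6.37 and 6.46 in hydrogen lungs and 6.30, 6.40 and 6.34 in control lungs (0.04, limma adjusted p = 0.569). It passed after cyclic loess (0.18, adjusted p = 0.0419) and with arrays quantile normalised again (0.21, adjusted p = 0.027). The alternative pathway was represented by Cfp, the properdin gene, with 4.27, 4.25 and 4.28 in hydrogen lungs and 4.25, 4.27 and 4.43 in control lungs (-0.05, limma adjusted p = 0.541). It was lower after cyclic loess (-0.19, adjusted p = 0.0401).

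Among 14 regulators, 5 were lower and 4 higher, or 35.7% and 28.6%, against 25.9% lower and 25.5% higher among all genes. The 4 higher were Cfi, Cd46, Cpn2 and Csmd1 (0.17 to 0.29), named after their values were seen. All 4 were dim, in brightness deciles 2 to 5. Cd55, which encodes decay accelerating factor, a surface protein that breaks up convertases, had 6.39, 6.66 and 6.27 in hydrogen lungs and 7.24, 7.25 and 7.01 in control lungs. The groups were apart, with a difference of -0.73 (SE 0.11, limma adjusted p = 0.00134), and -0.55 after cyclic loess. Of the other Cd55 probe sets, the brighter also had -0.73 and the dimmer had -0.30 (adjusted p = 0.0532).

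Clu, the gene of clusterin, a chaperone that also blocks membrane pore assembly, had 9.20, 9.13 and 9.27 in hydrogen lungs and 9.80, 9.84 and 9.86 in control lungs. Its difference was -0.63 (SE 0.06, limma adjusted p = 0.000293), and its other probe sets had -0.66 and -0.48. It was -0.49 after cyclic loess.

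Serping1, the gene of C1 inhibitor, which shuts off C1r and C1s, was the brightest regulator. It had 10.59, 10.52 and 10.63 in hydrogen lungs and 10.72, 10.77 and 10.73 in control lungs. Its difference of -0.16 (SE 0.05, limma adjusted p = 0.0414) was close to the median of -0.13 for its brightness. That call ended without hydrogen replicate 1 or 2, without control replicate 1, 2 or 3, with a replicate block, without dim probe sets, after cyclic loess and with arrays quantile normalised again (limma adjusted p = 0.0532 to 0.361).

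**Figure D5:**
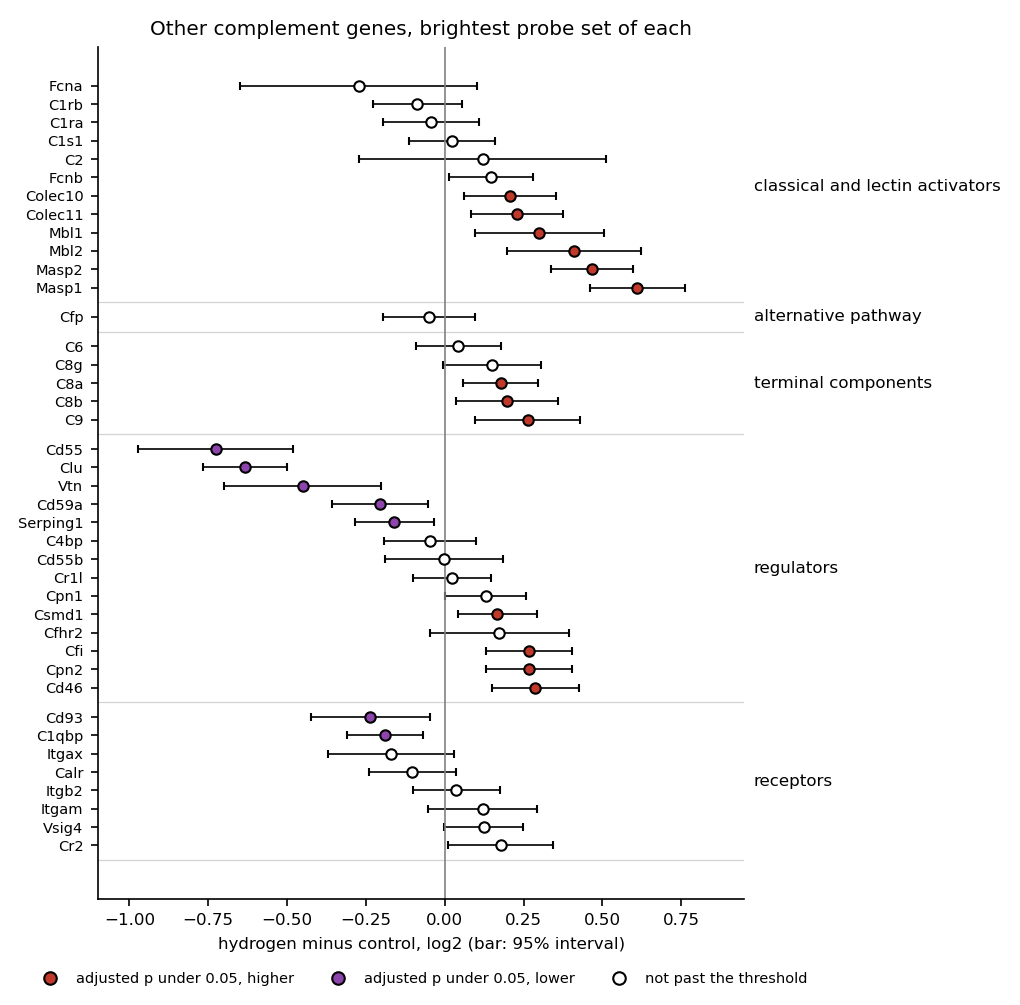
Log2 difference, hydrogen minus control, with 95% interval for 40 other complement genes, sorted within their roles (brightest probe set of each gene). Cd55 (-0.73) and Clu (-0.63) have the lowest values and Masp1 (0.61) the highest.

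Of 8 further receptors, 2 were lower and none higher (1 at an unadjusted p under 0.05 in limma). That is 25% lower, against 25.9% lower and 25.5% higher among all genes. The 2 were Cd93 and C1qbp, which was named after its values were seen. C1qbp had -0.19, and -0.21 by its dimmer probe set, beside a median of -0.13 in brightness decile 10, where the brighter lies. Cd93, an endothelial and myeloid surface protein once described as a C1q receptor, was the brightest, with 10.60, 10.45 and 10.42 in hydrogen lungs and 10.62, 10.68 and 10.88 in control lungs (-0.24, limma adjusted p = 0.0436). That call ended without hydrogen replicate 2 or 3, without control replicate 2 or 3, with a replicate block, after cyclic loess and with arrays quantile normalised again (limma adjusted p = 0.0711 to 0.18). Its dimmer probe sets had -0.82 (adjusted p = 0.000282) and 0.04 (adjusted p = 0.562). The integrin genes of complement receptors 3 and 4, Itgam, Itgax and Itgb2, did not pass. Itgam was dim, with a mean of 3.69 in brightness decile 2, whereas Itgax was in decile 9 and Itgb2 in decile 10.

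Genes whose values ran most like a member over the 6 arrays were sought among 10813 genes at or above the median probe set. As the groups stand apart, any gene that differs between them shares this pattern in part. For C1qa they were Med1, Purb and Cpq (Pearson r = 0.998, 0.996 and 0.994 over 6 arrays), with log2 differences of -0.21, -0.26 and -0.56. For C3ar1 they were Bri3bp, Klhl11 and Slc11a1 (r = 0.999, 0.997 and 0.994), and for Hc, which did not separate the groups, Ska2, G3bp1 and Heyl (r = 0.990, 0.980 and 0.977). Among the members, C1qa ran with C1qb at r = 0.984, with C1qc at r = 0.947 and with Cfb at r = 0.931 over the same arrays, and C1qb ran with Cfb at r = 0.908 and with C1qc at r = 0.890.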

How the data were processed

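RNA of 6 whole lungs was measured, 3 of hydrogen mice and 3 of control mice, grouped by the sample titles. The deposited table holds log2 values for each probe set on each of 6 arrays, to 2 decimals. RMA and Affymetrix Expression Console are named in the submitters' processing notes, per the labels; their versions and whether 1 run covered all arrays are not given there. Per the labels' protocols, lungs were kept in RNAlater and RNA was column-purified, amplified and hybridised to MG-430 PM Array Strips. No scanner files or genome were used here.

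Of 45141 probe sets, 104 control probe sets were left out of the test. The comparison used lmFit and eBayes of limma 3.58.1 (R 4.3.3) on the deposited log2 values, with no filter, and p-values were adjusted with Benjamini-Hochberg over all 45037 probe sets. Differences are hydrogen minus control. The number of arrays limits precision. Genes were named from the platform annotation, where 28898 probe sets have 1 symbol, 551 have several and 15588 have none. All 11 member probe sets had the RefSeq symbol of their Entrez identifier. A gene was represented by its brightest probe set. The rule for named genes took every member probe set and, of the other complement genes, those past the threshold by at least 0.5 and the brightest of each role. Markers named beside them were picked as examples after their values were seen. For likeness it took the 3 genes with the highest Pearson r to each of C1qa, C3, Hc and C3ar1; C3 gave none. Members and lists were chosen with earlier results of these data known.

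Same-numbered mice did not deviate together from their group means (r = 0.08, 0.03 and -0.11 over probe sets), so the main comparison has no replicate block. Other settings are given below. The fit was tested on simulated arrays with 200 planted log2 changes of 0.5. Of these, 101 (50.5%) passed the threshold in the right direction, and 5 unchanged probe sets passed. Promoter windows came from RefSeq (GRCm38.p6) and were held for 5 of the 8 genes. Plots used Python 3.11.15 with matplotlib 3.10.9.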

Additional observations from a re-analysis of the deposited data

How the results depend on the processing

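The falls of C1qa, C1qb and C1qc stayed past the threshold under all 16 other settings, with limma adjusted p no higher than 0.00908. They kept their direction, with log2 differences of -0.75 to -0.48, -0.84 to -0.60 and -0.87 to -0.66. With a replicate block, another prior variance, fewer probe sets tested or 1 value per gene, these differences could not move. Each chain has 1 probe set, and those settings leave its values as they are. Of the 11 member probe sets, the 2 higher calls became 0 with arrays centred on their medians (1 at an unadjusted p under 0.05 in limma), 1 without dim probe sets, where 7 remained to be tested, and 1 with a single value per gene, C3ar1 by the brightest probe set and C5ar1 by the mean of a gene's probe sets (0.14, adjusted p = 0.0406); leaving out 1 array gave 1 to 2. The 4 lower calls became 5 with centred arrays and 3 to 5 without 1 array. C3ar1 reversed to -0.026 with the mean of its probe sets, where its dimmest probe set, which fell, enters. The 13 higher calls among other complement genes became 8 after cyclic loess, 6 with centred arrays and 0 without dim probe sets (1 at an unadjusted p under 0.05 in limma), where 18 genes remained, and 6 to 12 without 1 array. Their 7 lower calls became 3 after renewed quantile normalisation, 4 after cyclic loess, 10 with centred arrays, 8 with a gene's mean and 3 to 6 without 1 array; other causes were not tested. With a replicate block the member calls were 2 higher and 4 lower and the other complement calls 10 and 5; Serping1 and Cd93 lost their calls under the block (adjusted p = 0.0779 and 0.076), and no member's call changed. The labels share only replicate numbers, so this is no test of pairing. The background of the arrays was not measured here, so how far the 4 member probe sets below the median lie above it is not known.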
